A study of Mus musculus with 14 samples.

Results

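The interferon-stimulated genes described here were the 43 genes of a list of well-known targets of interferon signalling, found by their symbols among the 25212 rows of the count table. All 43 were present and all 43 passed edgeR's filter on low counts, which kept 14252 genes for testing. The RNA came from the livers of 14 male C57BL/6 mice made obese on a high fat diet (HFD) that was kept up after surgery. Of these, 5 diet-induced obese (DIO) mice had no operation and 5 mice had Roux-en-Y gastric bypass (RYGB). The other 4 mice had an anastomosis of the gallbladder to the ileum with ligation of the common bile duct (GB-IL). The labels date the livers to 8 weeks after the operations, whereas the paper's caption for a panel of liver gene expression gives 4 weeks. The study's sham operation was not among the sequenced livers, so surgery itself and diversion of bile cannot be told apart. Levels are given as CPM, a gene's count relative to the library total after scaling by TMM (the trimmed mean of M values), with 1 library per liver, and numbers such as GB-IL 1 name the liver in the labels.

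Interferons are secreted proteins, and cells release those of type I and type III on sensing viral or bacterial nucleic acids. Type I and type III interferons activate a complex that holds STAT2 and IRF9 and binds the interferon-stimulated response element (ISRE), whereas interferon gamma acts through the gamma-activated site (GAS). In the liver the response is made by hepatocytes and by resident and recruited immune cells, and in bulk RNA a smaller number of such cells and less RNA per cell cannot be told apart.

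Promoter windows from RefSeq (GRCm38.p6), from 250 bases before to 50 bases after each gene start, were found for 32 of the 43 genes and gave 36 windows, since some genes have more than 1 start. The ISRE core, searched as 2 copies of GAAA separated by any 2 bases, on both strands and with overlapping matches counted, lay in 18 of the 36 windows (50%), compared with 3.44% of all 32851 windows of that length. The GAS motif, TTC and GAA separated by any 3 bases, which reads the same on both strands, lay in 11 of the 36 (30.6%), compared with 8.3% of all windows. The matches overlapped each other in some windows, as did a GAS match and an ISRE core in *Bst2* and in *Ifitm3*. All 6 windowed genes for guanylate-binding proteins (GBP) and immunity-related GTPases (IRG) held the ISRE core, as did all 3 windowed sensors. Of the 3 antigen processing genes 0 did, but the windows of *Psmb9* and *Tap1* are largely the same bases. Parts of 5 promoters are shown because their genes were high (*Rsad2* and *Oasl1*) or low (the others) in GB-IL 1. Capitals mark every ISRE core or its reverse complement in the 250 bases before the start, written 5′ to 3′ on the strand of the gene. They lie at chr12:26456453-26456702 for *Rsad2* (minus strand), chr5:114922990-114923239 for *Oasl1* (plus strand), chr19:34583279-34583528 for *Ifit3* (plus strand), chr4:156200819-156201068 for *Isg15* (minus strand) and chr11:58199306-58199555 for *Igtp* (plus strand).
Rsad2: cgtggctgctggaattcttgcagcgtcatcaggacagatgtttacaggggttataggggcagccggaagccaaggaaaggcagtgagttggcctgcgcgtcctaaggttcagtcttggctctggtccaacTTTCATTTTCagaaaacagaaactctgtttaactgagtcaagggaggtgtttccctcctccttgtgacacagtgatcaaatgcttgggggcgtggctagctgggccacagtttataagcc
Oasl1: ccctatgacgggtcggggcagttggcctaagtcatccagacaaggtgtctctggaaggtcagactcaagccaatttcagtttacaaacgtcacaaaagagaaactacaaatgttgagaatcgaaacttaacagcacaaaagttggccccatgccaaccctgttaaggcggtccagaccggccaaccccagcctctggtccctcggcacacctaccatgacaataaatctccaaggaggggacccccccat
Ifit3: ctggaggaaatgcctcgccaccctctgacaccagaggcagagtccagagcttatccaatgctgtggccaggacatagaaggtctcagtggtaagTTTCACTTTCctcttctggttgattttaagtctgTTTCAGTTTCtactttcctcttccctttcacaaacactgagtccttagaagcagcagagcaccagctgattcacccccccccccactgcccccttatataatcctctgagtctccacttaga
Isg15: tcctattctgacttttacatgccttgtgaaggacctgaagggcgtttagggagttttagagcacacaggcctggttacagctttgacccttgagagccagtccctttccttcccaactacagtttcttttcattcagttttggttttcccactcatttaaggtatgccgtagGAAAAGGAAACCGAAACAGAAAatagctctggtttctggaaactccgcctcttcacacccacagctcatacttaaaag
Igtp: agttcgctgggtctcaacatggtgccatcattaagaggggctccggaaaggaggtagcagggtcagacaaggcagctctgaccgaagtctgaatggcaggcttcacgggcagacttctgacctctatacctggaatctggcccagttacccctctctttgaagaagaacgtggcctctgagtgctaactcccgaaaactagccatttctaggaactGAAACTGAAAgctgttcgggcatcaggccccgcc
The ISRE core began 120 bases before the start in *Rsad2*, 34 bases before it in *Igtp* and first at 156 bases before it in *Ifit3*. In *Isg15* there were 3 overlapping matches, the first at 78 bases before the start, and the letters were not found in the *Oasl1* window.

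**Figure D1:**
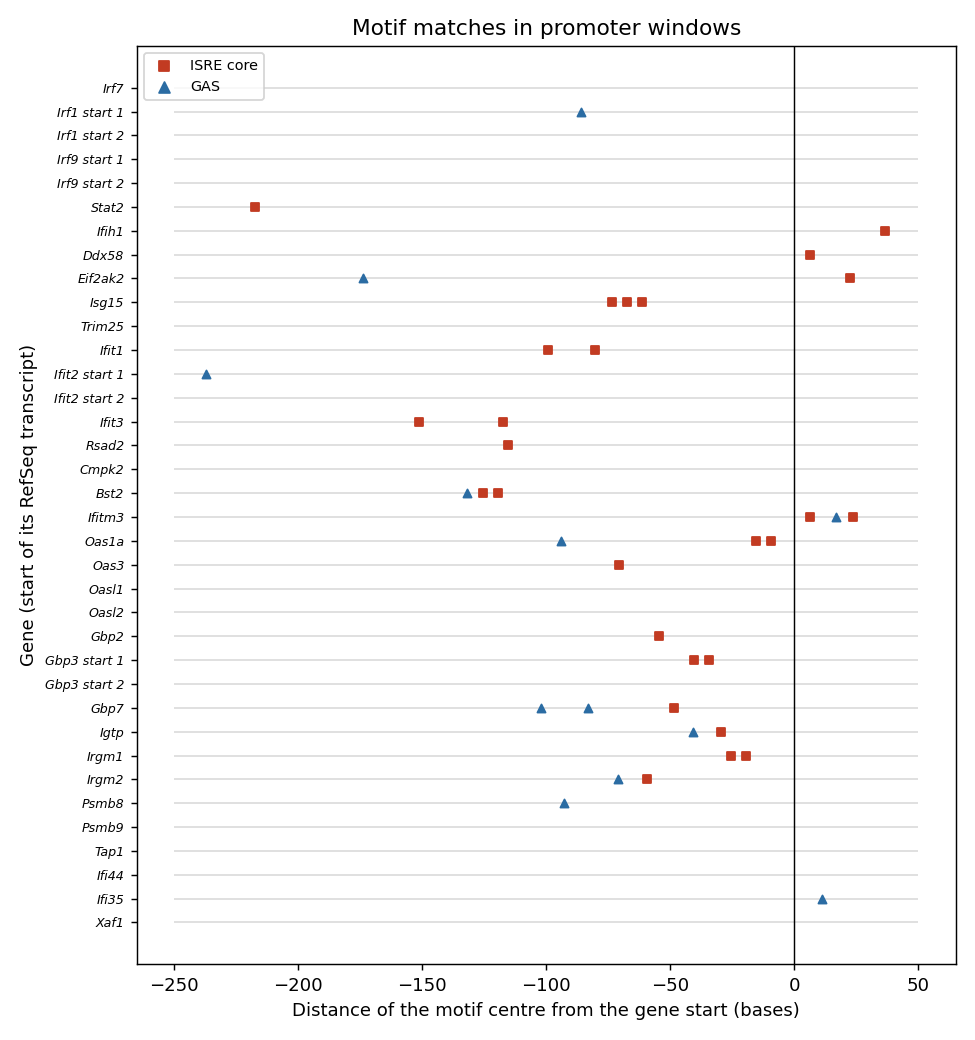
Positions of ISRE core (squares) and GAS (triangles) matches in the promoter windows of the interferon-stimulated genes, 1 line per RefSeq gene start, with the distance of the motif centre from the start in bases on the horizontal axis. Of the 36 windows, 18 hold an ISRE core and 11 hold a GAS match.

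Total counts ranged over 18440676 to 21473005 (DIO), 19231679 to 26131278 (GB-IL) and 18223135 to 28656631 (RYGB). On the first principal component of all genes tested (49.3% of the variance), GB-IL 1 and GB-IL 2 lay at 125 and 98.9, GB-IL 3 at 19.0 and GB-IL 4 at -33.1, with DIO between -42.4 and -20.2 and RYGB between -31.9 and 15.7. Sums over cell type markers, here and in later paragraphs, are in CPM of the library total without TMM scaling. Single markers were set against the DIO livers by TMM-scaled CPM. The hepatocyte markers (6 of 7 listed were in the table, none at 0) summed to 83280 to 122422 CPM in GB-IL, below the 123075 to 138162 CPM of DIO. RYGB had 118349 to 148507 CPM, and hepatocyte transcripts were thus abundant in every liver. Of the 6 markers, 5, 4, 3 and 1 lay below all DIO livers in GB-IL 1 to GB-IL 4, and 1, 2, 1 and 0 above. Of all genes tested, 37.5%, 35.9%, 18.3% and 14.4% lay below in these livers, and 36.1%, 35.4%, 25.6% and 15.6% above. The sums were not taken on the TMM scale, where GB-IL 4 and DIO may overlap. By edgeR's quasi-likelihood F test, 465 of all genes tested (3.26%) passed a false discovery rate (FDR) of 0.05 in GB-IL against DIO, and 0 genes (0%) did in RYGB against DIO and in GB-IL against RYGB. The 465 became 0 without GB-IL 1, without GB-IL 2 or without any 1 of the DIO livers, and 3572 (24.6%) without GB-IL 4.

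By the edgeR test no interferon-stimulated gene passed the FDR in any comparison, whereas DESeq2 and voom with sample quality weights called 0 to 3. The genes were at unlike levels among the 4 GB-IL livers. Most were below the DIO range in GB-IL 1 and GB-IL 2, with *Rsad2* and *Oasl1* high in GB-IL 1. Most were within or above the DIO range in GB-IL 3 and GB-IL 4, with *Ifit1* in GB-IL 3 and *Ifi27* and *Ifitm3* in GB-IL 4 below it. In RYGB most lay below the DIO mean, with RYGB 5 the lowest. GB-IL and RYGB were both compared with the same DIO livers, so these comparisons are not independent.

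Of the 43 genes, 36 lay below all 5 DIO livers in GB-IL 1 and 34 did so in GB-IL 2, where 37.5% and 35.9% of all genes tested did. Their median difference from the DIO mean, on the scale of log2(CPM + 0.25), was -1.27 in GB-IL 1 and -1.07 in GB-IL 2. Above all DIO livers lay 2 of the 43 in each of GB-IL 1 (36.1% of all genes) and GB-IL 2 (35.4%). In GB-IL 3 and GB-IL 4 only 1 and 2 of the 43 lay below all DIO livers (18.3% and 14.4% of all genes), whereas 17 and 13 lay above all of them (25.6% and 15.6% of all genes), with medians of 0.39 and 0.46. The median of all genes tested lay within 0.0294 of 0 in every operated liver. Together the 43 genes took 0.0784% and 0.0858% of the count in GB-IL 1 and GB-IL 2, 0.224% and 0.188% in GB-IL 3 and GB-IL 4, 0.136 to 0.196% in DIO, and 0.0994 to 0.152% in RYGB.

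In RYGB, 11, 11, 10 and 12 of the 43 lay below all DIO livers in RYGB 1 to RYGB 4, where 16.1% to 19.1% of all genes did, and 0 to 2 lay above them, where 17.1% to 18.6% of all genes did. In RYGB 5, 30 of the 43 lay below all DIO livers (26.1% of all genes) and 0 above (27.3%), with a median of -0.89, and RYGB 5 was the lowest of its group for 32 of the 43. The DIO livers also differed among themselves. Against the other 4 DIO livers, the median difference was 0.36 in DIO 1 and 0.48 in DIO 2, and -0.37 in DIO 4 and -0.43 in DIO 5.

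**Figure D2:**
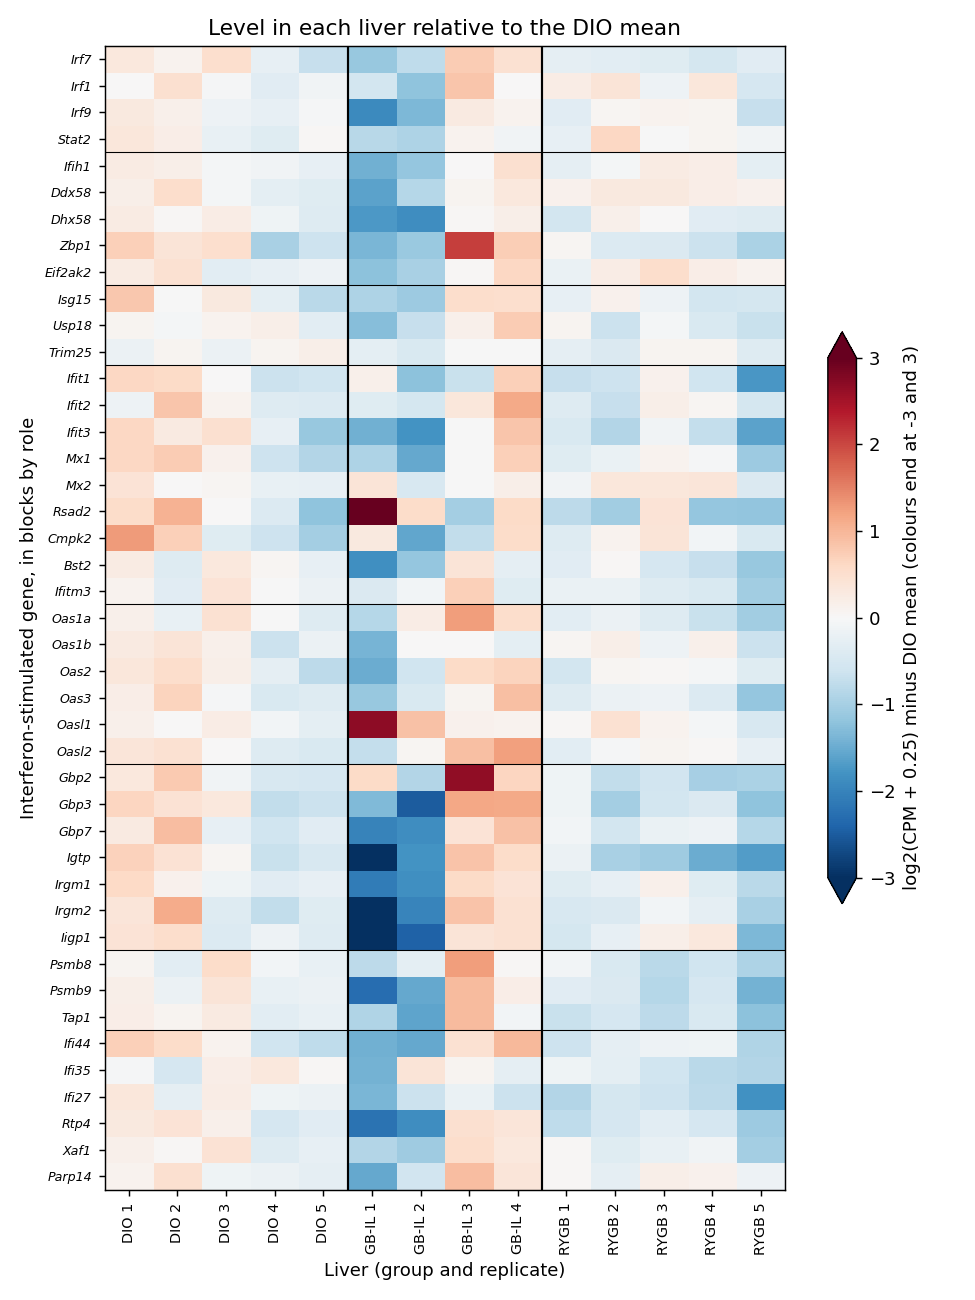
Level of each of the 43 interferon-stimulated genes (lines, in blocks by role) in each of the 14 livers (columns) as the log2(CPM + 0.25) difference from the DIO mean, with colours ending at a difference of 3 in either direction. The columns of GB-IL 1, GB-IL 2 and RYGB 5 are mostly blue (lower), those of GB-IL 3 and GB-IL 4 mostly red (higher), and *Rsad2* and *Oasl1* are red in GB-IL 1.

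**Figure D3:**
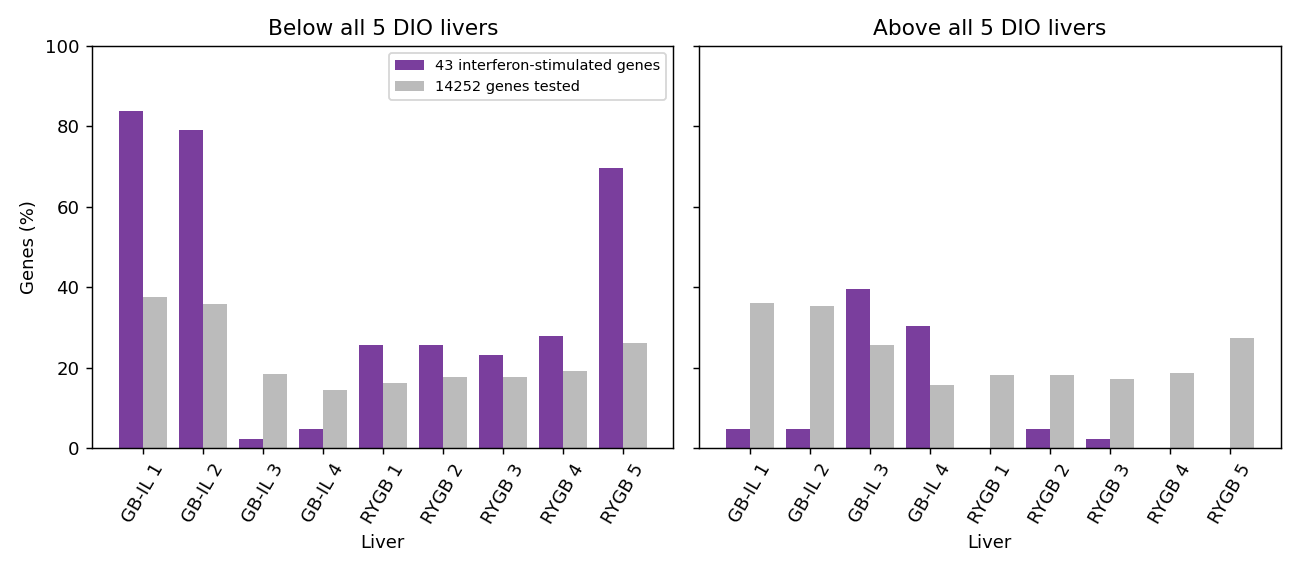
Share (%) of the 43 interferon-stimulated genes (purple) and of the 14252 genes tested (grey) that lay below all 5 DIO livers (left) or above all of them (right), for each GB-IL and RYGB liver. Of the 43 genes, 36 lay below in GB-IL 1, 34 in GB-IL 2 and 30 in RYGB 5, and 17 lay above in GB-IL 3.

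The coefficient of variation within GB-IL had a median of 64.0% over the 43 genes, compared with 39.3% over all genes tested, and 39 of the 43 exceeded the latter. It was 27.0% against 20.5% in DIO and 24.0% against 20.997% in RYGB. Within GB-IL the highest liver exceeded the lowest by a median of 4.74-fold, from 1.36-fold for *Trim25* to 35.5-fold for *Iigp1*.

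The markers of other cell types also differed among these livers. Of all genes tested, 37.5%, 35.9%, 18.3% and 14.4% lay below all DIO livers in GB-IL 1 to GB-IL 4. Above all DIO livers lay 36.1%, 35.4%, 25.6% and 15.6%. In RYGB 5, 26.1% lay below and 27.3% above. Counts of markers near these shares are not a result about the cell type. Neutrophil markers (7 of 7 in the table) summed to 111, 49.3, 340 and 5.89 CPM in GB-IL 1 to GB-IL 4, to 4.42 to 10.1 CPM in DIO and to 6.66 to 122 CPM in RYGB, where RYGB 5 was the highest. *Retnlg*, *Ly6g*, *Mmp8* and *Ngp* were at 0 in at least 1 liver. Monocyte markers (5 of 5) summed to 133 to 539 CPM in GB-IL, above the 49.0 to 114 CPM of DIO, and to 64.5 to 155 CPM in RYGB, with none at 0. Of these 5, 4, 3, 5 and 3 lay above all DIO livers in GB-IL 1 to GB-IL 4, and 1 lay below them in GB-IL 1 and in GB-IL 2. T and NK cell markers (8 of 8) summed to 0.637, 3.95, 11.2 and 3.83 CPM in GB-IL 1 to GB-IL 4, to 3.25 to 6.16 CPM in DIO and to 1.68 to 4.94 CPM in RYGB, where RYGB 5 was the lowest. *Cd8a*, *Ncr1*, *Klrb1c* and *Gzma* were at 0 in at least 1 liver. Of these 8, 7 lay below all DIO livers in GB-IL 1 and 6 in RYGB 5 but 1 in GB-IL 2 and 2 in GB-IL 4, whereas 7 lay above them in GB-IL 3 and 1 in GB-IL 4. Macrophage markers (6 of 7 in the table) summed to 311, 466.1, 1135 and 442 CPM in GB-IL 1 to GB-IL 4, to 236 to 379 CPM in DIO and to 260 to 649 CPM in RYGB. All 6 lay above all DIO livers in GB-IL 3, and 4 did in GB-IL 2 and in GB-IL 4. In GB-IL 1, 2 lay above and 2 below, and in GB-IL 2, 1 lay below. Plasmacytoid dendritic cell markers (5 of 5) summed to 44.7 CPM in GB-IL 1 and 13.0 to 16.2 CPM in the other GB-IL livers, with 9.64 to 17.6 CPM in DIO and 12.3 to 23.7 CPM in RYGB. *Siglech*, *Ccr9*, *Cox6a2* and *Klk1* were at 0 in at least 1 liver. The list was split: of the 5, 2 lay above all DIO livers in GB-IL 1 and 1 below. In GB-IL 2, GB-IL 3 and GB-IL 4, 0, 0 and 1 lay above and 2, 1 and 1 below. The other dendritic cell markers (5 of 5, *Cd209a* at 0 in at least 1 liver) summed to 6.45 to 10.4 CPM in GB-IL, 3.85 to 9.13 CPM in DIO and 4.93 to 7.28 CPM in RYGB.

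Among the markers of structural cells, none of which was at 0, those of stellate cells (5 of 5) summed to 775 CPM in GB-IL 1 and 161 to 266 CPM in the other GB-IL livers, with 172 to 277 CPM in DIO and 248.7 to 455 CPM in RYGB. RYGB 5 was the highest of its group. Of the 5 stellate markers, 3 lay above all DIO livers in GB-IL 1 (36.1% of all genes) and 2 in RYGB 5 (27.3%). In either liver 0 lay below (37.5% and 26.1% of all genes). Cholangiocyte markers (4 of 4) summed to 29.5, 39.5, 12.5 and 8.65 CPM in GB-IL 1 to GB-IL 4, to 4.60 to 10.1 CPM in DIO and to 6.64 to 13.1 CPM in RYGB. Endothelial markers (5 of 5) summed to 477 CPM in RYGB 5 and 139 to 219 CPM in the other RYGB livers, with 152 to 192 CPM in DIO and 147 to 190 CPM in GB-IL. In RYGB 5, 4 of them lay above all DIO livers (27.3% of all genes) and 1 below (26.1%). The part of these cells in the levels of the interferon-stimulated genes was not tested.

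In GB-IL against DIO, edgeR's quasi-likelihood F test (Benjamini-Hochberg adjusted over all genes) called 0 of the 43 (3.26% of all genes tested). DESeq2 called 1 (*Oasl1*) and 9.07% of all genes, and voom with sample quality weights called 1 (*Gbp2*) and 4.13% of all genes. At an unadjusted p below 0.05, 2 were higher (*Oasl1* and *Gbp2*, where 16.7% of all genes were higher) and 1 was lower (*Ifi27*, where 6.43% of all genes were lower). The lower count was 0 without GB-IL 1 (3.21% of all genes) and 5 without GB-IL 3 (8.29%) or GB-IL 4 (17.3%). The log2 fold change lay below 0 for 31 of the 43, as for 46.9% of all genes, and its median was -0.17 against 0.04 over all genes. That median turned to 0.04 without GB-IL 1 and 0.06 without GB-IL 2, and was 0.39 without both, an alternative added after the values had been seen. For 0 of the 43 did the groups not overlap (2.67% of all genes were higher and 1.51% lower without overlap).

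In RYGB against DIO the same edgeR test called 0 of the 43 and 0% of all genes. DESeq2 called 0 (0.681% of all genes) and voom with sample quality weights called 2 (*Ifi27* and *Ifi35*, 11.9% of all genes). At an unadjusted p below 0.05, 0 were higher (5.35% of all genes) and 1 was lower (*Ifi27*, 3.36% of all genes). This last count was 5 without GB-IL 1 (5.04% of all genes) or without GB-IL 3 (3.48%), and 14 when the RYGB and DIO livers were fitted alone (8.01% of all genes). The log2 fold change lay below 0 for 37 of the 43, as for 48.5% of all genes, with a median of -0.42 against 0.01 over all genes and of -0.29 without RYGB 5. For 3 of the 43 (*Ifi27*, *Tap1* and *Psmb9*) all RYGB livers lay below all DIO livers, as for 1.66% of all genes, and for 0 did they lie above (1.87%).

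In GB-IL against RYGB the edgeR test called 0 of the 43 and 0% of all genes, DESeq2 called 3 (*Gbp2*, *Oasl1* and *Rsad2*, 5.93% of all genes), and voom with sample quality weights called 1 (*Gbp2*, 0.807% of all genes). At an unadjusted p below 0.05, 5 were higher in GB-IL (*Gbp2*, *Rsad2*, *Oasl1*, *Oas1a* and *Psmb8*, where 15.3% of all genes were higher) and 0 were lower (6.77% of all genes). The 5 became 11 without GB-IL 1 (10.8% of all genes), 9 without GB-IL 2 (9.67%) and 3 without GB-IL 3 (15.9%), and 4 were lower without GB-IL 4 (17% of all genes). The log2 fold change lay above 0 for 31 of the 43 and below it for 12 (47.5% of all genes), with a median of 0.24 against 0.03 over all genes. That median fell to 0.01 without GB-IL 3 and -0.05 without GB-IL 4, and for 0 of the 43 did the groups not overlap (1.27% of all genes higher and 1.57% lower).

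**Figure D4:**
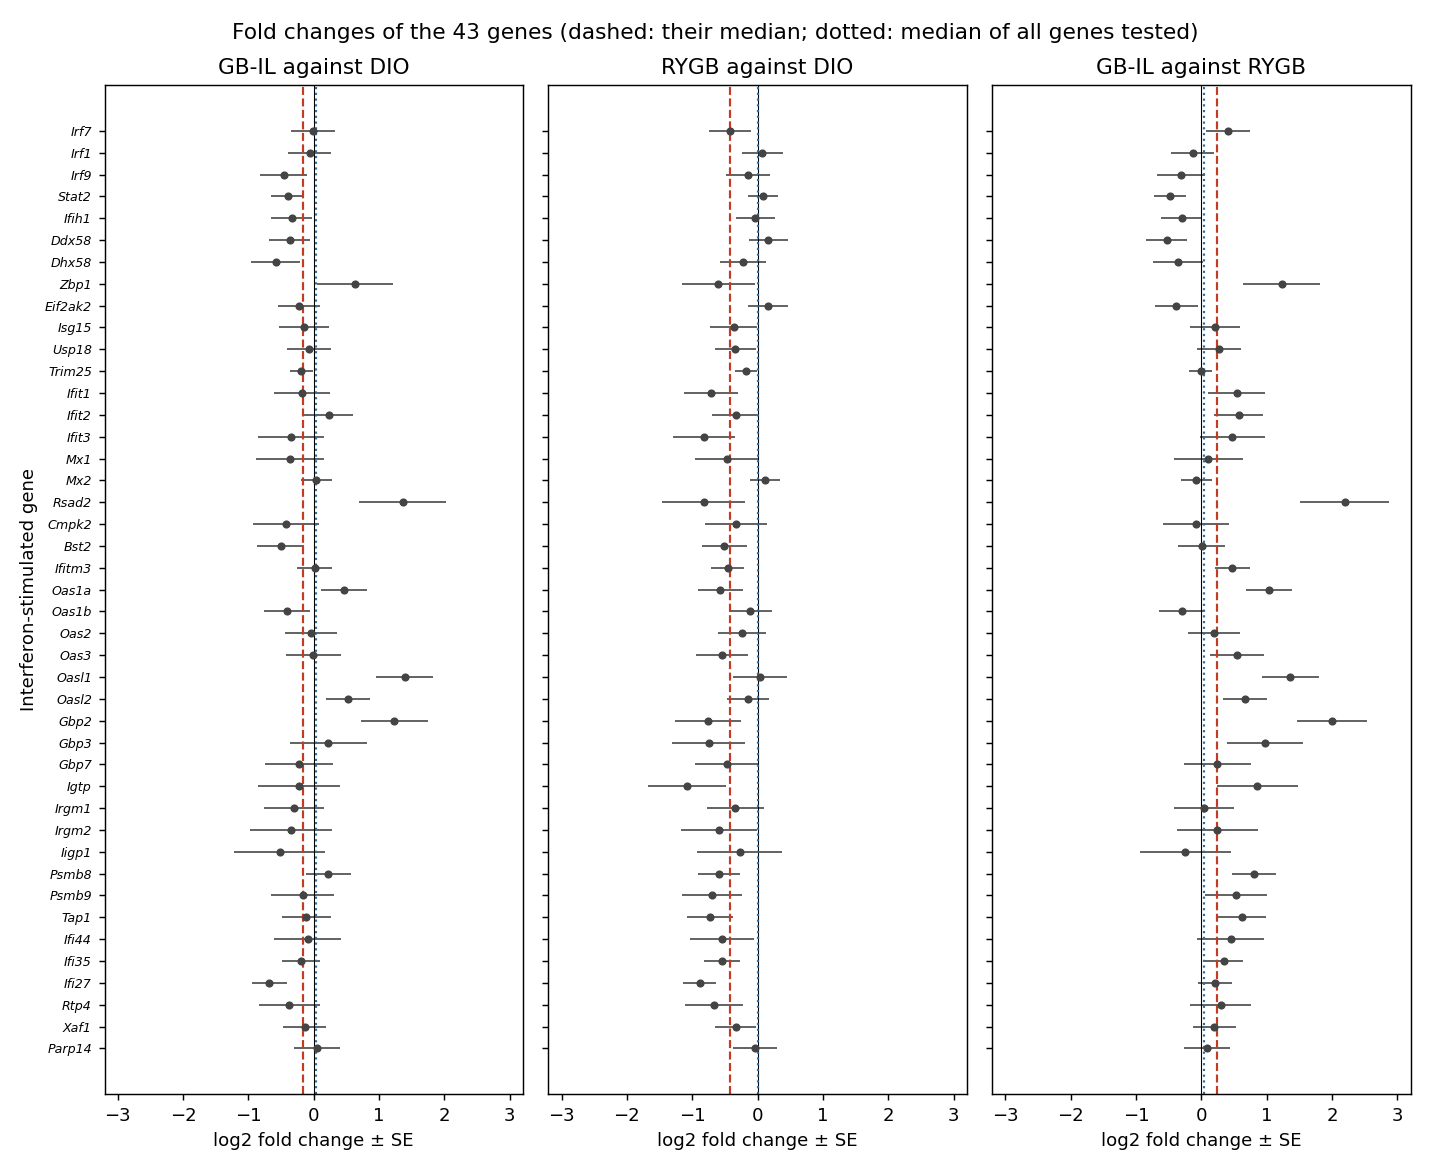
Log2 fold change ± standard error (SE) of each of the 43 interferon-stimulated genes in the 3 comparisons, from edgeR's quasi-likelihood fit of all 14 livers, with the median of the 43 genes (dashed) and of all genes tested (dotted). The medians of the 43 are -0.17, -0.42 and 0.24, and *Rsad2*, *Oasl1* and *Gbp2* lie furthest to the right in the comparisons of GB-IL.

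Among the transcription factors (*Irf1*, *Irf7*, *Irf9* and *Stat2*), all 4 lay below all DIO livers in GB-IL 1 and in GB-IL 2. Of all genes, 37.5% and 35.9% did. *Irf7*, an inducer of type I interferon genes named after its values were seen, had 14.5, 18.9, 54.8 and 44.1 CPM in GB-IL against 19.8 to 45.4 CPM in DIO. *Stat2*, a subunit of the complex that binds the ISRE, had 82.6, 75.1, 56.0, 50.1 and 66.1 CPM in DIO, 36.6, 34.1, 69.4 and 60.1 CPM in GB-IL and 54.8, 100.2, 64.9, 68.5 and 60.3 CPM in RYGB. GB-IL 1 and GB-IL 2 were the lowest of all 14 livers, RYGB 2 was the highest, and the groups overlapped. Against RYGB the log2 fold change of *Stat2* in GB-IL was -0.48 (SE 0.25, adjusted p = 0.266, edgeR's quasi-likelihood F test, Benjamini-Hochberg adjusted).

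The 5 sensors detect viral RNA or unusual nucleic acid structures. All 5 lay below all DIO livers in GB-IL 1 (37.5% of all genes) and in GB-IL 2 (35.9%). *Ddx58*, which encodes the RNA sensor RIG-I, had 30.0, 38.5, 25.4, 21.5 and 20.5 CPM in DIO, 8.56, 14.4, 28.1 and 33.2 CPM in GB-IL and 28.9, 32.6, 32.2, 30.2 and 28.9 CPM in RYGB. *Dhx58*, which encodes the RIG-I-like protein LGP2, had 14.5, 12.4, 14.1, 11.1 and 9.18 CPM in DIO, 3.47, 3.16, 12.3 and 13.6 CPM in GB-IL and 8.15, 13.4, 12.2, 9.56 and 9.21 CPM in RYGB. For both genes GB-IL 1 and GB-IL 2 were the lowest livers, the other GB-IL livers lay within the DIO range, and the groups overlapped. *Zbp1*, a sensor of left-handed nucleic acids named after its values were seen, reached 33.2 CPM in GB-IL 3, with 2.78 to 13.0 CPM in the other GB-IL livers and 3.79 to 12.7 CPM in DIO.

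ISG15 is a ubiquitin-like modifier, USP18 removes it, and TRIM25 is a ubiquitin ligase that activates RIG-I. *Isg15*, named after its values were seen, had 13.5, 7.63, 9.46, 6.22 and 4.28 CPM in DIO, 3.94, 3.45, 11.1 and 10.96 CPM in GB-IL and 6.45, 8.34, 6.83, 5.13 and 5.26 CPM in RYGB. *Trim25* had 95.3, 114, 94.7, 115 and 121 CPM in DIO, 87.5, 78.3, 107 and 107 CPM in GB-IL and 89.6, 79.5, 114, 113 and 81.7 CPM in RYGB. For both genes GB-IL 1 and GB-IL 2 lay below all DIO livers and GB-IL 3 and GB-IL 4 within their range, but the span within GB-IL was 1.36-fold for *Trim25* and 3.23-fold for *Isg15*.

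Of the 9 IFIT, MX and other antiviral effectors, 4 lay below all DIO livers in GB-IL 1, near the share of all genes (37.5%). In GB-IL 2, 7 did (35.9% of all genes), and in RYGB 5, 7 did (26.1%). *Rsad2* (chromosome 12, 26442746 to 26456452, GRCm38), which encodes viperin, an enzyme that makes a chain-terminating nucleotide, had 13.7, 19.2, 9.26, 6.79 and 3.85 CPM in DIO, 77.3, 13.7, 4.37 and 13.8 CPM in GB-IL and 5.25, 4.34, 12.3, 3.97 and 3.91 CPM in RYGB. GB-IL 1 was the highest of all livers, the other 3 GB-IL livers lay within the DIO range, and RYGB lay in its lower part apart from RYGB 3. In GB-IL its log2 fold change was 1.37 against DIO (SE 0.67, adjusted p = 0.232) and 2.19 against RYGB (SE 0.68, adjusted p = 0.115, both by edgeR's quasi-likelihood F test, Benjamini-Hochberg adjusted), and these were 0.01 and 0.83 without GB-IL 1.

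*Cmpk2*, a mitochondrial nucleotide kinase gene that neighbours *Rsad2* on chromosome 12 (26469204 to 26479837), had 9.94, 6.69, 3.05, 2.49 and 1.83 CPM in DIO, 4.89, 1.19, 2.29 and 5.94 CPM in GB-IL and 2.95, 4.29, 5.28, 3.72 and 2.80 CPM in RYGB, and is given because of that position. It was not raised beyond the DIO range in GB-IL 1, and the groups overlapped. *Ifitm3*, a membrane protein gene that restricts viral entry, had the highest level per exonic length of the 43 (460 CPM per kb over all livers), followed by *Bst2*, the gene of tetherin (95.2), *Ifi27* (58.8) and *Iigp1* (39.7), and the lowest were *Mx1* (0.399) and *Oas3* (0.265). *Ifitm3* had 365, 266, 451, 338 and 299.7 CPM in DIO, 252, 319, 560.1 and 262 CPM in GB-IL and 293, 294, 258, 248 and 163 CPM in RYGB. GB-IL 3 was the highest liver and RYGB 5 the lowest, and 3 of 5 RYGB livers lay below all DIO livers. Its log2 fold change was -0.45 in RYGB against DIO (SE 0.25, adjusted p = 0.634) and 0.47 in GB-IL against RYGB (SE 0.26, adjusted p = 0.296, both by edgeR's quasi-likelihood F test, Benjamini-Hochberg adjusted), the latter falling to 0.15 without GB-IL 3. RefSeq lists *Mx1*, *Mx2* and *Oas1b* as transcribed pseudogenes in the C57BL/6J reference, so their levels are of the transcripts only.

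*Ifit3*, given because its promoter is shown, encodes a protein of the RNA-binding IFIT family and had 17.2, 13.3, 15.6, 9.34 and 4.90 CPM in DIO, 3.94, 2.99, 10.9 and 19.9 CPM in GB-IL and 8.04, 5.92, 10.2, 6.62 and 3.46 CPM in RYGB. GB-IL 1 and GB-IL 2 lay below the DIO range and GB-IL 4 above it. Reads of *Ifit3* may be shared with its near copy *Ifit3b*, as may those of *Oas1a* and of the *Gbp* genes with their paralogs, so levels of these genes are uncertain.

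The OAS genes encode sensors of double-stranded RNA, whose products activate an RNA-cutting enzyme, and relatives without that activity. In GB-IL 1, 5 of the 6 lay below all DIO livers (37.5% of all genes) and the sixth, *Oasl1*, above all of them (36.1%). In GB-IL 2 only 1 lay below (35.9% of all genes). *Oasl1* (chromosome 5, 114923240 to 114937915), one of the relatives without that activity, had 10.7, 9.79, 11.3, 9.11 and 7.88 CPM in DIO, 63.8, 17.96, 10.6 and 10.4 CPM in GB-IL and 10.01, 13.4, 10.5, 9.27 and 6.92 CPM in RYGB. GB-IL 1 and GB-IL 2 lay above every other liver, and GB-IL 3 and GB-IL 4 lay within the DIO range. For *Oasl1* the fold change in GB-IL was 1.40 on the log2 scale against DIO (SE 0.44, adjusted p = 0.088) and 1.36 against RYGB (SE 0.43, adjusted p = 0.119, both by edgeR's quasi-likelihood F test, Benjamini-Hochberg adjusted), and without GB-IL 1 these were 0.41 and 0.37. The adjusted p against DIO was 0.0435 without GB-IL 3 and 0.0127 without GB-IL 4 by the same edgeR test.

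The GBP and IRG GTPases, which attack the membranes around intracellular microbes and are known for their induction by interferon gamma, spanned wide ranges. In GB-IL 1, 6 of the 7 lay below all DIO livers (37.5% of all genes), with a median log2 difference of -2.11. In GB-IL 2 all 7 did (35.9% of all genes), with a median of -1.86. In RYGB 5 all 7 did (26.1% of all genes), with a median of -0.96. In GB-IL 3 and GB-IL 4 the medians were 0.84 and 0.55. *Iigp1*, the most abundant per length, had 347, 377, 197, 235 and 201 CPM in DIO, 10.1, 48.5, 339 and 360.1 CPM in GB-IL and 182, 219.9, 293, 326 and 102 CPM in RYGB. GB-IL 1 and GB-IL 2 were the lowest of the 14 livers and RYGB 5 the next, while GB-IL 3 and GB-IL 4 lay in the upper part of the DIO range.

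*Igtp*, *Irgm2* and *Irgm1* were named after their values were seen, for their range within GB-IL. *Igtp* had 77.6, 65.3, 50.2, 30.0 and 34.3 CPM in DIO, 4.15, 13.7, 87.7 and 70.6 CPM in GB-IL and 42.6, 24.7, 22.9, 16.9 and 15.0 CPM in RYGB. *Irgm2* had 70.6, 119, 42.0, 32.6 and 42.6 CPM in DIO, 5.25, 13.7, 98.5 and 75.5 CPM in GB-IL and 38.9, 40.2, 51.9, 45.0 and 27.9 CPM in RYGB. The highest GB-IL liver exceeded the lowest 21.1-fold for *Igtp* and 18.8-fold for *Irgm2*, and 4 of 5 RYGB livers lay below all DIO livers for *Igtp*. These 2 genes share 162 exonic bases on the same strand, so their reads there cannot be told apart. *Irgm1* had 13.0, 15.6, 84.9 and 75.9 CPM in GB-IL, against 44.8 to 85.6 CPM in DIO and 32.2 to 62.9 CPM in RYGB. The log2 fold change of *Igtp* in RYGB against DIO was -1.08 (SE 0.60, adjusted p = 0.634, edgeR's quasi-likelihood F test, Benjamini-Hochberg adjusted).

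*Gbp2* (chromosome 3, 142620602 to 142638008) departed from the other GTPases. It had 10.6, 14.9, 7.94, 5.997 and 5.91 CPM in DIO, 12.8, 4.52, 54.8 and 13.4 CPM in GB-IL and 7.76, 5.03, 5.60, 4.14 and 4.33 CPM in RYGB. GB-IL 3 was the highest liver, GB-IL 1 lay within the DIO range where the 6 other GTPases lay below it, and 4 of 5 RYGB livers lay below all DIO livers. On the log2 scale *Gbp2* differed by 1.24 in GB-IL against DIO (SE 0.52, adjusted p = 0.177) and 2.00 against RYGB (SE 0.53, adjusted p = 0.0888, both by edgeR's quasi-likelihood F test, Benjamini-Hochberg adjusted), and without GB-IL 3 these were 0.18 and 0.94.

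**Figure D5:**
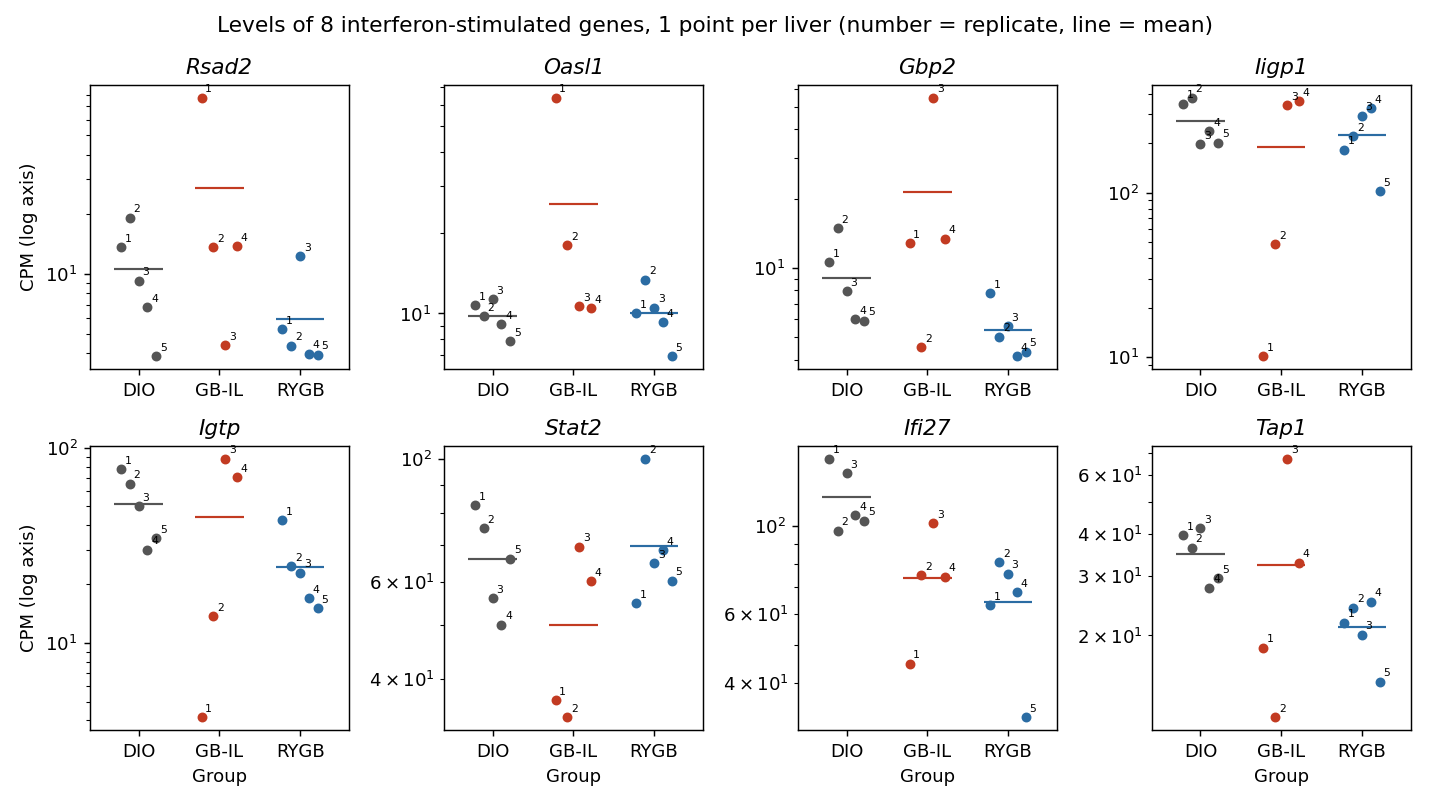
CPM (log axis) of 8 interferon-stimulated genes by group, 1 point per liver numbered by replicate, with a line at the group mean. GB-IL 1 is highest for *Rsad2* (77.3) and *Oasl1* (63.8) and lowest for *Iigp1* (10.1) and *Igtp* (4.15), GB-IL 3 is highest for *Gbp2* (54.8), and all RYGB livers lie below all DIO livers for *Ifi27* and *Tap1*.

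PSMB8 and PSMB9 are subunits of the immunoproteasome, and TAP1 carries peptides into the endoplasmic reticulum for presentation. All 3 genes lay below all DIO livers in RYGB 2, RYGB 3, RYGB 4 and RYGB 5 (17.7%, 17.6%, 19.1% and 26.1% of all genes). In RYGB 1, 2 of the 3 did (16.1% of all genes). In GB-IL 3 all 3 lay above all DIO livers (25.6% of all genes). *Tap1* had 39.8, 36.6, 41.7, 27.7 and 29.6 CPM in DIO, 18.4, 11.4, 67.1 and 32.9 CPM in GB-IL and 21.8, 24.2, 20.1, 25.2 and 14.6 CPM in RYGB. *Psmb9*, named for its groups that did not overlap, had 21.5, 17.0, 25.2, 16.4 and 16.8 CPM in DIO, 3.73, 6.44, 36.9 and 21.9 CPM in GB-IL and 15.0, 14.2, 10.5, 13.4 and 6.96 CPM in RYGB. For both, every RYGB liver lay below every DIO liver, and GB-IL spanned both groups.

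*Psmb8* had 35.7, 26.9, 49.6, 31.6 and 28.8 CPM in DIO, 19.3, 27.6, 80.1 and 34.5 CPM in GB-IL and 32.0, 24.5, 19.1, 22.01 and 17.7 CPM in RYGB. Only RYGB 1 reached the DIO range, and GB-IL 3 was the highest liver. The log2 fold changes in RYGB against DIO were -0.73 for *Tap1* (SE 0.35, adjusted p = 0.584), -0.69 for *Psmb9* (SE 0.46, adjusted p = 0.699) and -0.58 for *Psmb8* (SE 0.32, adjusted p = 0.634), all by edgeR's quasi-likelihood F test, Benjamini-Hochberg adjusted. Between GB-IL and RYGB *Psmb8* differed by 0.81 on the log2 scale (SE 0.34, adjusted p = 0.189 by the same edgeR test), which was 0.24 without GB-IL 3. *Psmb9* and *Tap1* share 212 exonic bases on opposite strands, and *Psmb8* shares 498 with the opposite-strand gene *Gm20496*. Since the strand setting of the counting is not given, reads there cannot be assigned.

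Among the 6 remaining genes, *Ifi27* (chromosome 12, 103434211 to 103440239), which encodes a small mitochondrial membrane protein, had 148, 97.3, 136, 107 and 103 CPM in DIO, 44.7, 74.9, 102 and 74.4 CPM in GB-IL and 63.0, 80.9, 75.7, 68.0 and 32.7 CPM in RYGB. All RYGB livers and 3 of 4 GB-IL livers lay below all DIO livers. Its log2 fold change against DIO was -0.68 in GB-IL (SE 0.27, adjusted p = 0.161) and -0.88 in RYGB (SE 0.25, adjusted p = 0.383), both by edgeR's quasi-likelihood F test, Benjamini-Hochberg adjusted, in comparisons that share the DIO livers. *Ifi27* was thus the one gene of the 43 with an unadjusted p below 0.05 in both.

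*Ifi35*, the gene of an interferon-induced leucine zipper protein, had 28.3, 20.6, 33.4, 36.3 and 30.0 CPM in DIO, 10.7, 38.1, 31.1 and 24.2 CPM in GB-IL and 26.8, 23.9, 19.4, 16.5 and 15.7 CPM in RYGB. It was highest in GB-IL 2, where most of the 43 genes were low, and 3 of 5 RYGB livers lay below all DIO livers. Its log2 fold change in RYGB against DIO was -0.54 (SE 0.28, adjusted p = 0.607, edgeR's quasi-likelihood F test, Benjamini-Hochberg adjusted), and it shares 290 exonic bases with the antisense gene *Gm11626*. The other 4 (*Ifi44*, *Parp14*, *Rtp4* and *Xaf1*) lay below all DIO livers in GB-IL 1 and GB-IL 2 and spanned 3.16-fold (*Xaf1*) to 6.96-fold (*Rtp4*) within GB-IL.

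Upstream of these genes, 30 of 45 listed ligands, receptors, kinases, transcription factors, adaptors and inhibitors were in the table and 26 could be tested. Of the listed ligands, 3 (*Ifnb1*, *Ifnab* and *Ifng*) were found in the table by their symbols. The genes of interferon alpha other than *Ifnab* and of interferon lambda thus gave no values here. *Ifnb1* had 1 count in 1 RYGB liver and 0 in the others, *Ifnab* had 1 count in 1 liver, and *Ifng* had 20 counts in all, of which 8 were in GB-IL 3. A count of 0 allows up to 3 counts, or 0.105 to 0.165 CPM (counting error only), so differences in the ligands were not detectable at this depth.

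In GB-IL against DIO 1 of the 26 passed the FDR (3.26% of all genes), and at an unadjusted p below 0.05, 9 were higher (16.7% of all genes) and 1 lower (6.43%). In RYGB against DIO 0 passed by edgeR's quasi-likelihood test (0% of all genes). At an unadjusted p below 0.05 by that test, 0 were higher (5.35% of all genes) and 0 lower (3.36%). In GB-IL against RYGB 0 passed (0% of all genes). There 6 were higher (15.3% of all genes) and 0 lower (6.77%) at an unadjusted p below 0.05. *Socs3*, a feedback inhibitor of cytokine receptors induced chiefly through STAT3, was the gene that passed. It had 9.89, 11.7, 8.85, 9.39 and 17.98 CPM in DIO, 164, 73.5, 44.7 and 4.80 CPM in GB-IL and 14.5, 18.5, 9.65, 33.0 and 16.4 CPM in RYGB, so that 3 GB-IL livers lay above all DIO livers and GB-IL 4 below them. Its log2 fold change was 2.63 (SE 0.63, adjusted p = 0.0383, edgeR's quasi-likelihood F test, Benjamini-Hochberg adjusted). By the same edgeR test the adjusted p was 0.157 without GB-IL 1 (log2 fold change 1.82), 0.0821 without GB-IL 2, between 0.0874 and 0.103 without any 1 of the 5 DIO livers and between 0.05001 and 0.0531 without RYGB 1, RYGB 2 or RYGB 3. The call was also lost with voom (log2 fold change 1.44, adjusted p = 0.239), with the GB-IL and DIO livers fitted alone (adjusted p = 0.116 by edgeR) and with the replicate number as a block (adjusted p = 0.133 by edgeR). In all it was lost in 14 of 22 alternatives.

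*Tmem173*, which encodes the adaptor STING, had 3.24, 3.00, 2.54, 2.55 and 2.50 CPM in DIO, 4.10, 9.26, 8.06 and 2.91 CPM in GB-IL and 4.05, 2.76, 2.64, 3.31 and 5.75 CPM in RYGB. Its log2 fold change in GB-IL against DIO was 1.13 (SE 0.33, adjusted p = 0.072, edgeR's quasi-likelihood F test, Benjamini-Hochberg adjusted). It passed by DESeq2 (adjusted p = 0.022), by voom (adjusted p = 0.028) and, with edgeR, without GB-IL 4 (adjusted p = 0.00709). *Ifnlr1*, the receptor subunit for interferon lambda, had 0 to 0.192 CPM in DIO, 1.37, 1.24, 0.763 and 0.0738 CPM in GB-IL and 0 to 0.831 CPM in RYGB. Its log2 fold change in GB-IL against DIO was 2.98 (SE 0.89, adjusted p = 0.0772, edgeR's quasi-likelihood F test, Benjamini-Hochberg adjusted), at levels near that of a few reads. It passed by DESeq2 (adjusted p = 0.0193) and, with edgeR, without GB-IL 4 (adjusted p = 0.00826). For both genes GB-IL 1, GB-IL 2 and GB-IL 3 lay above all DIO livers and GB-IL 4 within their range. *Ifngr1*, a subunit of the interferon gamma receptor, was the 1 gene of the 26 that was higher in GB-IL than in DIO without overlap (2.67% of all genes). It had 46.1, 43.5, 43.1 and 24.7 CPM in GB-IL against 20.6 to 22.7 CPM in DIO. RYGB 1 to RYGB 5 had 23.5, 19.3, 21.1, 22.7 and 60.9 CPM. Its log2 fold change in GB-IL against DIO was 0.87 (SE 0.30, adjusted p = 0.117, edgeR's quasi-likelihood F test, Benjamini-Hochberg adjusted).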

How the data were processed

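The authors extracted liver RNA, amplified it, sequenced it on the Illumina platform, aligned it to mm10 with TopHat 2 and made HTSeq counts per gene (the labels' processing notes also name hg19). The deposited table holds these raw counts, in whole numbers and without normalization. The sources used here give neither tool versions nor the annotation and strandedness of counting. For 2 kits in the labels no liver is named, so kit and group cannot be told apart.

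Analysis used edgeR 4.0.16, DESeq2 1.42.0 and limma 3.58.1 (R 4.3.3) and Python 3.11.15. Genes were kept by filterByExpr, scaled by TMM, and fitted by edgeR's quasi-likelihood model on all 14 livers, 1 mean per group, with Benjamini-Hochberg adjustment over 14252 genes at an FDR of 0.05. The procedure was also run on simulated data with the same spread in every group. That run does not show how it behaves with the wider spread of GB-IL. Each liver was set against the DIO livers on the scale of log2(CPM + 0.25). Livers are replicates by their labels, which number them as separate mice, and p-values measure the spread between these libraries. Positions are from GENCODE M21, which matched all 43 genes. Of these, 17 share exonic bases with another gene.

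The 43 genes, their role groups and the lists of markers and other pathway genes were chosen with earlier results of these data known. The values of some pathway and marker genes are not reported here. Genes are named by this rule, with exceptions stated: in each role group the smallest p in GB-IL against DIO and the highest level per length, the 3 smallest p in each comparison, and of the other pathway genes the 3 smallest p in GB-IL against DIO and those past the FDR. The alternatives were RLE scaling, DESeq2, voom with sample quality weights, no filter, a fit of the 2 compared groups, a block for the replicate number, a minimum log2 fold change of 1 in size on top of the FDR, each liver left out, and, added after seeing the data, leaving out GB-IL 1 and GB-IL 2 together.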

Additional observations from a re-analysis of the deposited data

Results flagged for a closer look

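Of 66 sets of values examined within groups, 3 had a liver far from the rest of its group by Dixon's criterion, which chance meets in about 1 of 20 groups. The sets did not cover every gene named above. *Ifngr1* was not among them, with RYGB 5 at 60.9 CPM and the next RYGB liver at 23.5 CPM. *Rsad2* in GB-IL had 77.3 CPM in GB-IL 1, with the next liver at 13.8 CPM. *Oasl1* in GB-IL had 63.8 CPM in GB-IL 1, with the next at 17.96 CPM. *Rsad2* in RYGB had 12.3 CPM in RYGB 3, with the next at 5.25 CPM.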

How the results depend on the processing

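With edgeR's quasi-likelihood test the number of the 43 genes past the FDR was 0 in each comparison. In GB-IL against DIO it was 1 with DESeq2 (*Oasl1*) and 1 with voom with sample quality weights (*Gbp2*), and 0 to 1 with 1 liver left out (*Oasl1* without GB-IL 3 or GB-IL 4, where 3.99% and 24.6% of all genes passed). In RYGB against DIO it was 2 with voom (*Ifi27* and *Ifi35*) and 0 to 0 with 1 liver left out. In GB-IL against RYGB it was 3 with DESeq2, 1 with voom, and 0 to 3 with 1 liver left out (3 without GB-IL 4, where 21.5% of all genes passed). The cause was not tested. The median log2 fold change of the 43 ranged from -0.42 to 0.06, from -0.54 to -0.29 and from -0.05 to 0.47 in the 3 comparisons with 1 liver left out, and was 0.26, -0.10 and 0.38 with voom. Without GB-IL 1 and GB-IL 2, an alternative added after seeing the data, it was 0.39, -0.42 and 0.77, and *Rsad2* in GB-IL against DIO reversed to -0.23. With the replicate number as a block 0, 0 and 0 of the 43 were called and the medians were -0.39, -0.45 and 0.00011, with 1 gene of all called in GB-IL against DIO in place of 465. The numbers gave no clear sign of pairing: of 13 pairs with the same number 2 correlated above 0.1 (range -0.40 to 0.39). Only 1 of 14 livers correlated best with its own number. With so few livers per group these correlations cannot exclude pairing. Depth limits the values of the interferon ligands and of other genes at a few counts, such as *Ifnlr1*.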
